A study of Mus musculus with 4 samples.

Results

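The solute carriers were the genes whose symbol starts with Slc followed by a digit, which gave 266 of the 29134 genes named in the site lists. Of these, 218 had at least 1 N6-methyladenosine (m6A) site inside their boundaries on the same strand in at least 1 library, and 48 had none. Across all genes, 16520 had such a site. The rule also took in genes that are not carriers, such as Slc4a1ap, Slc7a6os and the pseudogenes Slc2a4rg-ps and Slc25a5-ps. Of the 266 genes, 5 were not protein-coding.

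Solute carriers are membrane proteins that move small molecules across cell and organelle membranes by facilitated diffusion, exchange or cotransport with ions. They bring glucose, amino acids, metals and vitamins into the cell, export lactate and zinc, and feed nucleotides and metabolites into mitochondria and nucleotide sugars into the Golgi. m6A is the most abundant internal mark of mRNA, is written mainly by a complex whose catalytic subunit is METTL3, and affects how long many mRNAs persist.

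The data were 4 GLORI libraries of poly(A) RNA from retinal organoids, eye-like tissue that mouse pluripotent cells form in culture, at day 4 of differentiation. There were 2 libraries of the wild-type (WT) Rx:GFP line, a reporter line for the eye field gene Rax, and 2 of a Mettl3 knockout (KO) line that also carried doxycycline-inducible HA-METTL3. All were grown in medium with 5% KSR and AGN at 0.1 µM, and the labels give the treatment as none. Beyond this they do not say whether doxycycline was withheld from the KO line, so expression of HA-METTL3 there was not settled by the labels. GLORI deaminates unmodified adenosine so that it is read as G, and the share of reads that still show A at a position is the m6A level.

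Each list held only positions read 15 or more times, with 5 or more unconverted reads, a level from 0.1 upward, a p of at most 0.004 by the authors' test and a conversion rate of at least 0.801. A site missing from a list may have failed any of these minima, and absence is not a measured 0. The labels do not say whether the replicates were separate cultures, so p-values measure the spread between these libraries only, and all counting intervals cover counting error only.

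The lists held 215850 to 288516 sites per library with a median coverage of 38 to 41 reads. Mettl3 itself had 18 and 15 listed sites in the WT libraries and 20 and 21 in the KO libraries, at a coverage of 1.01 and 0.801 times the median gene in the WT and 1.16 and 1.04 times in the KO. Both KO values lay above both WT values on each measure. The labels do not say which part of Mettl3 was altered, so these values do not check the genotype labels. Of the eye field markers, Rax had 20 and 35 sites in the WT libraries and no site in either KO list, and Six6 had no site in any list. Of the 6 eye field markers, 5 had a coverage value in each WT library and 4 in each KO library. Their summed coverage was 38.5 and 40.1 median genes in the WT and 13.1 and 11.7 in the KO. Rax, at 3.64 and 3.04 in the WT, had no value in the KO and added nothing to the KO sums. Pax6, which is among these 6, was not lower, with 2.22 and 2.23 in the WT and 2.61 and 2.23 in the KO. The same sum for 3 pluripotency genes was 3.67 and 4.35 in the WT and 2.33 and 1.87 in the KO. In each KO library 2 of these genes had a value, and Zfp42 had none. The markers of mesoderm, endoderm and neural crest each summed to at most 0.605 in any library, with a marker that had no value counted as 0. The part of these marker differences in the results below was not tested, and in bulk RNA fewer cells of a type and less RNA per cell cannot be told apart.

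Solute carrier transcripts carried slightly fewer listed sites in the KO, and far fewer of high level. The WT libraries listed 2966 and 3620 solute carrier sites and the KO libraries 2872 and 2711, a KO over WT ratio of means of 0.848, against 0.874 for all genes. The 2 KO values lay below both WT values. The median level was 0.250 in each WT library and 0.212 and 0.229 in the KO libraries, and the median coverage was 38 and 41 reads in the WT and 39 and 37 reads in the KO.

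Among sites with a coverage of at least 50 reads, those at a level of at least 0.3 numbered 169 and 283 in the WT and 72 and 86 in the KO. The KO over WT ratio of means was 0.350 for solute carriers and 0.441 for all genes, and the difference between these ratios was not tested. Between levels of 0.5 and 0.7 the WT libraries held 36 and 55 solute carrier sites and the KO libraries 7 and 15. From 0.9 up to full methylation the WT held 19 and 33 and the KO 2 and 1. In the lowest class, 0.1 to 0.2, the genotypes overlapped, with 720 and 925 sites in the WT and 843 and 704 in the KO.

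**Figure D1:**
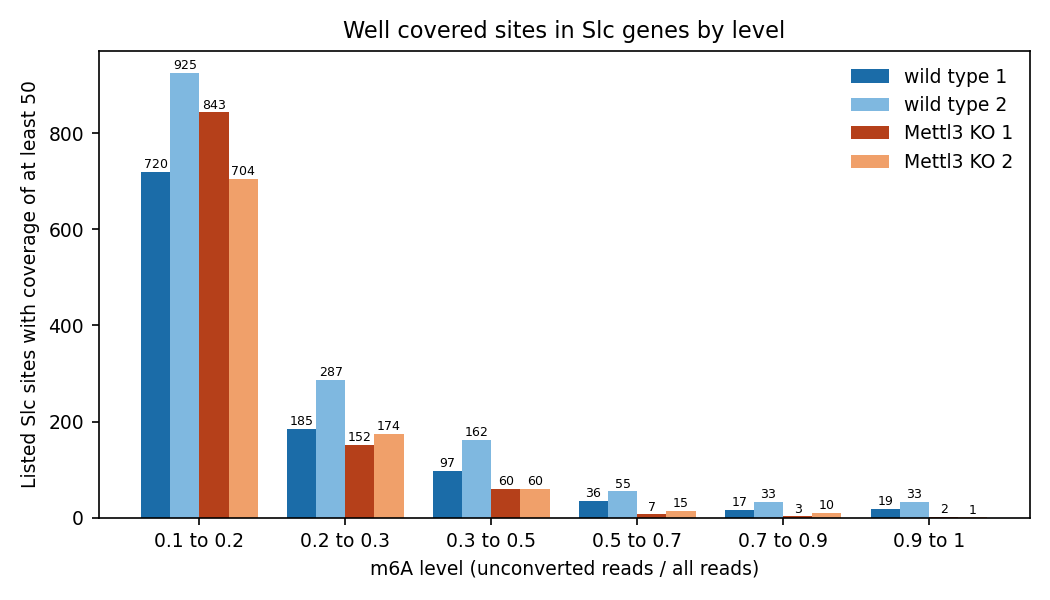
Number of listed solute carrier sites with a coverage of at least 50 reads (vertical axis) in classes of m6A level (horizontal axis), with 1 bar per library and its count above it. The libraries overlap at levels of 0.1 to 0.2, while at 0.9 and above the WT libraries hold 19 and 33 sites and the KO libraries 2 and 1.

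Repeatable methylation was much rarer than listed methylation. Of the 11112 solute carrier positions listed anywhere, 10150 (91.3%) were in a single library, and 9 were in all 4 lists. The WT libraries shared 428 solute carrier sites, 6.95% of the positions in either, whereas every other pair of libraries shared 2.17% to 2.84%. Over all genes the WT libraries shared 5.78% and the other pairs 2.49% to 2.59%. Of the WT 1 sites read 50 or more times at a level from 0.3 upward, 50.9% were also in the WT 2 list. In the KO 1 and KO 2 lists were 7.10% and 9.47% of them. Over all genes these shares were 46.4%, 7.47% and 7.62%. Of such WT 2 sites, 37.8% were in the WT 1 list, and 6.01% and 7.42% were in the KO 1 and KO 2 lists. Over all genes the shares of WT 2 sites were 37.9%, 6.68% and 6.48%. Between the KO libraries such sites recurred in 2.78% and 4.65% of cases, against 7.75% and 9.03% over all genes.

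Sites listed in both WT libraries and read 20 or more times in each are called repeatable below. There were 387 in 110 solute carrier genes, of which 31 had a single such site and 29 had at least 5. The 387 include 2 sites of the pseudogene Slc25a5-ps and 5 of Slc7a6os. Of the 387 sites, 328 (84.8%, Wilson 95% interval 80.8% to 88.0%) were in neither KO list. The background over all genes was 83.1% of 22892 repeatable sites, so the solute carrier share was close to that of genes at large. In the reverse direction, 94 of 128 sites shared by the KO libraries (73.4%, 65.2% to 80.3%) were in neither WT list, and the background was 72.1%. The median level was 0.269 over repeatable WT sites and 0.173 over the sites shared by the KO libraries.

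Coverage was considered next, because absence can also follow from thin coverage. The coverage expected at a site in each KO library was the WT coverage scaled by the ratio of the gene's coverage, taking the smaller of the values from the WT libraries. Among sites inside a single protein-coding gene, 161 repeatable sites were expected to have at least 50 reads in both KO libraries. Of these, 134 (83.2%, 76.7% to 88.2%) were in neither KO list, with a background of 80.5%. With a WT level of at least 0.3 as well, it was 41 of 48 sites (85.4%, 72.8% to 92.8%), with a background of 85.9%. The reverse count, without the limit on level, took sites shared by the KO libraries. Of these, 47 of 66 (71.2%, 59.4% to 80.7%) were in neither WT list, with a background of 65.7%.

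There were 59 solute carrier sites in 35 genes that were read 50 or more times at a level from 0.3 upward in both WT libraries. Of these 50 were in neither KO list, 7 in 1 KO list and 2 in both, and over all genes the share in neither list was 85.2%. The highest KO level at any of the 59 positions was 0.327. At 7 of them the mean WT level was at least 0.9, and no site reached a coverage of 50 and a level of 0.3 in both KO libraries. The median absolute difference between the WT libraries at these sites was 0.0539. The 20 of these 59 with the highest mean WT levels lay in 16 genes, and 14 of them were in neither KO list. They are described by the role of the carrier.

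The monocarboxylate carriers, which move lactate and pyruvate with protons, held the highest level at this coverage, while some repeatable sites with fewer reads had a mean WT level of 1.00. Slc16a3, the lactate exporter of glycolytic cells, had a level of 0.995 (217 reads) and 0.997 (372 reads) in the WT at chromosome 11, position 120847548, plus strand, 4146 bases before the gene's last base. The site was in neither KO list although at least 250.6 reads were expected there.

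Slc16a1 (ENSMUSG00000032902, chromosome 3, 104545984 to 104565778, plus strand) had levels of 0.995 (223 reads) and 0.983 (594 reads) in the WT at position 104560503, against 0.136 (441 reads) and 0.133 (226 reads) in the KO. The WT pair and the KO pair did not overlap, and the libraries of a pair differed by 0.0124 and 0.00331. The site lies 5275 bases before the gene's last base and carries the authors' intron mark. A further 3 Slc16a1 sites were among the 20, all within 311 bases of it, at mean WT levels of 0.926, 0.924 and 0.703, and none of these was in a KO list.

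Slc2a1 (ENSMUSG00000028645, chromosome 4, 118965908 to 118995180, plus strand) encodes the main glucose carrier of many embryonic and neural cells and was the member with the highest gene coverage. At position 118993801, 1379 bases before its last base, its level was 0.989 (1100 reads) and 0.978 (1480 reads) in the WT. The site was in neither KO list, where 897 and 563 reads were expected. A further Slc2a1 site, 346 bases downstream, had levels of 0.733 (2914 reads) and 0.780 (3361 reads) in the WT and was also in neither KO list.

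**Figure D2:**
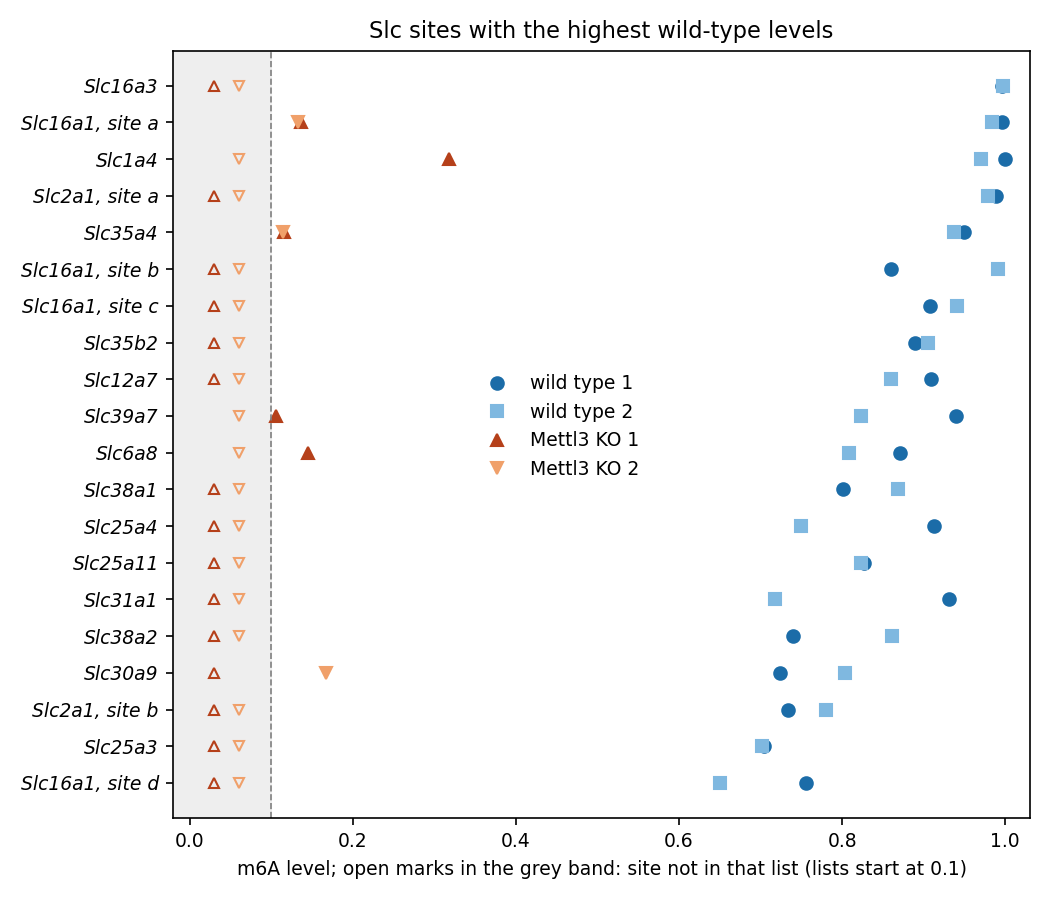
m6A level (horizontal axis) at the 20 solute carrier sites with the highest mean WT level among those read 50 or more times at a level from 0.3 upward in both WT libraries (1 row per site, letters tell apart sites of a gene), with filled marks for libraries that list the site and open marks in the grey band, below the list minimum of 0.1, for libraries that do not. All WT marks lie at 0.650 or above and the highest KO mark is 0.318, at Slc1a4.

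Among amino acid carriers, Slc1a4, an exchanger of alanine, serine and cysteine, had levels of 1.00 (60 reads) and 0.970 (101 reads) in the WT and 0.318 (66 reads) in KO 1, and was not in the KO 2 list, where a coverage under 50 reads was expected. Slc38a1 and Slc38a2 are sodium-coupled carriers of glutamine and other neutral amino acids. At their highest repeatable sites, the WT levels were 0.801 and 0.869 in Slc38a1 and 0.740 and 0.862 in Slc38a2. Both of these sites were in neither KO list, with at least 216 reads expected. A Slc38a2 site 658 bases before the last base had a higher level in WT 1, 0.959 (579 reads), and was not in the WT 2 list. Slc6a8, which takes up creatine, had levels of 0.871 and 0.808 in the WT and 0.145 in KO 1.

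Carriers of mitochondria and metals were also among the 20. Slc25a4, the ADP/ATP exchanger of the inner mitochondrial membrane, had levels of 0.912 and 0.749, Slc25a11, an oxoglutarate and malate exchanger, 0.827 and 0.823, and Slc25a3, the mitochondrial phosphate carrier, 0.704 and 0.702 in the WT. None of these sites was in a KO list. The coverage expected in the KO was at least 374 reads for Slc25a4 and 413 for Slc25a11, and for Slc25a3 it could not be computed because the gene had no single coverage value.

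Slc39a7, a zinc importer of the secretory pathway, had levels of 0.940 and 0.823 in the WT and 0.105 in KO 1, at a position that also lies in the overlapping gene Gm20427. Slc31a1, the copper importer, had levels of 0.931 and 0.718 in the WT and none listed in the KO. Slc30a9, of the zinc exporter family, had levels of 0.723 and 0.804 in the WT and 0.167 in KO 2.

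Of the nucleotide sugar carrier family, Slc35b2, which supplies the Golgi with the sulfate donor, had levels of 0.889 (117 reads) and 0.906 (127 reads) in the WT. It was in neither KO list, although at least 149.8 reads were expected. Slc35a4 had levels of 0.949 (98 reads) and 0.937 (95 reads) in the WT and just above the list minimum in the KO libraries (9 of 78 and 7 of 61 reads unconverted). Slc12a7, a potassium and chloride cotransporter, had levels of 0.909 and 0.860 in the WT and none listed in the KO.

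Level itself could be tested only at sites in all 4 lists. An edgeR quasi-likelihood test on unconverted and converted reads covered 991 such sites of all genes, each read 20 or more times per library, and at a Benjamini-Hochberg adjusted p under 0.05 it called 38 lower in the KO (3.83%) and 0 higher. Of the 9 solute carrier sites tested, 2 were lower and 0 higher, and the same 2 were the only ones with an unadjusted p under 0.05. Slc16a1 at position 104560503 fell from 0.989 ± 0.00874 to 0.134 ± 0.00234 (SD, n = 2; edgeR adjusted p = 0.000124). Slc35a4 at position 36815735 of chromosome 18 fell from 0.943 ± 0.00858 to 0.1151 ± 0.000445 (SD, n = 2; edgeR adjusted p = 0.000294). Without KO replicate 2, which leaves 1 KO library, neither passed the edgeR test, at an unchanged size of the difference.

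The other tested sites had lower WT levels. Slc31a1 at position 62307903 had a level of 0.278 ± 0.0150 in the WT and 0.269 ± 0.0398 in the KO, and a second Slc35a4 site 0.235 ± 0.00969 and 0.173 ± 0.0482 (SD, n = 2). For Slc24a2, a sodium and calcium exchanger, the means were 0.211 and 0.228, and for Slc30a10, a manganese exporter, 0.189 and 0.229. The neighbouring sites of Slc25a39, a mitochondrial glutathione carrier, had means of 0.150 and 0.152 and of 0.141 and 0.135. At each of these 6 the edgeR adjusted p was at least 0.838. Because such a site must exceed a level of 0.1 in the KO to be tested, this test leaves out sites that fell further.

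The genes with most repeatable sites were spread over the classes. Counting sites in both WT lists at any listed coverage, Slc25a36, a pyrimidine nucleotide carrier of mitochondria, Slc7a6, an exchanger of cationic and large neutral amino acids, and Slc39a7 had 12 each. Slc35a4 and Slc38a2 had 11 each and Slc38a1 had 10. Slc20a1, a phosphate carrier, Slc30a9, Slc2a1 and Slc1a4 tied at 9.

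Levels within a gene ranged widely. The 12 sites of Slc25a36 with a coverage of at least 20 had mean WT levels of 0.143 to 0.673 with a median of 0.217, and all 12 were in neither KO list. The 9 sites of Slc2a1 ranged from 0.116 to 0.984, and 7 were in neither KO list. The 9 of Slc20a1 stayed between 0.135 and 0.306, with 7 in neither KO list, and of the 12 of Slc39a7, 7 were in neither KO list.

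Repeatable sites of high level stood close together in some genes. In Slc16a1 the 4 highest repeatable sites lay within 600 bases of each other, between 4964 and 5564 bases before the last base. Sites 5342 (454 reads) and 2644 (235 reads) bases before the last base had a level of 1.0 in WT 2 and were not in the WT 1 list. In Slc38a2 the sites of 0.801 and 0.583 lay 148 bases apart, and that of 0.642 lay 882 bases before the last base. Among all solute carrier repeatable sites, 29.5% lay within 1000 bases of the gene's last base, against 33.3% over all genes. For the 59 high sites it was 25.4%, against 41.4% over all genes, and for solute carrier positions seen in a single library it was 20.2%. The authors' intron mark was on 46.5% of repeatable solute carrier sites, and where sites lay relative to the reading frame was not analysed here.

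**Figure D3:**
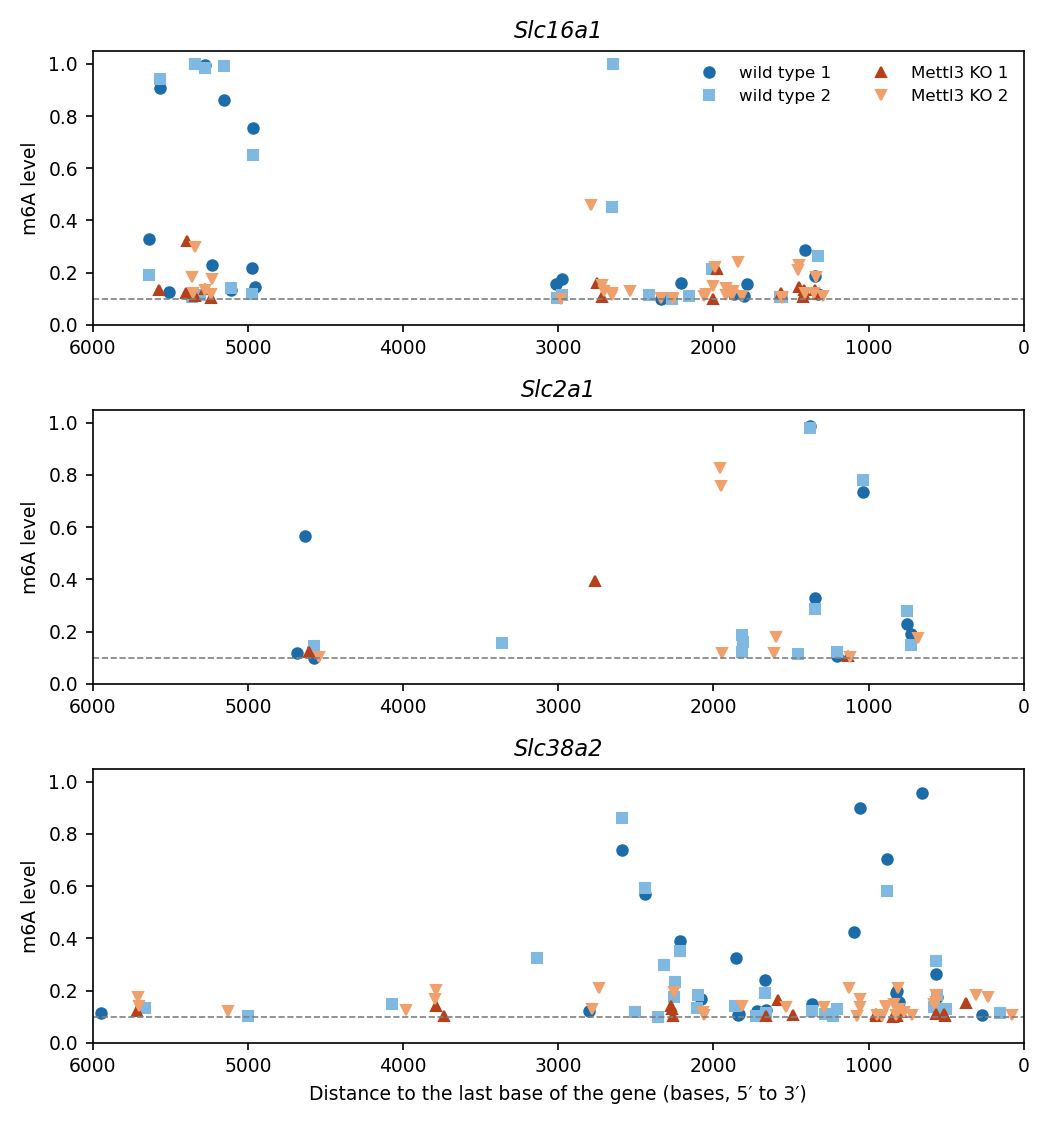
m6A level (vertical axis) of listed sites with a coverage of at least 50 reads against the distance to the gene's last base (horizontal axis, in bases, the last 6000 bases drawn) for Slc16a1, Slc2a1 and Slc38a2, with 1 mark per site and library and a dashed line at the list minimum of 0.1. In Slc16a1 the 4 repeatable sites with mean WT levels of 0.703 to 0.989 lie between 4964 and 5564 bases before the last base, and the highest KO mark in the gene is 0.458.

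By class of substrate, the share of repeatable sites in neither KO list was 90.0% of 100 for amino acid and peptide carriers, 92.4% of 79 for mitochondrial carriers and 89.5% of 38 for sugar and monocarboxylate carriers. It was 82.6% of 46 for ion exchangers and cotransporters and 84.0% of 25 for carriers of nucleosides, vitamins and lipids. It was 73.5% of 34 for nucleotide sugar carriers and 68.1% of 47 for carriers of zinc and other metals. Sites of a gene are not independent, and differences between classes were not tested. Among other transport genes, 20 of 21 sites (95.2%) in ABC transporters, 38 of 45 (84.4%) in ion-pumping ATPases and 72 of 85 (84.7%) in partners and regulators of solute carriers were in neither KO list. Slco genes had no repeatable site.

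**Figure D4:**
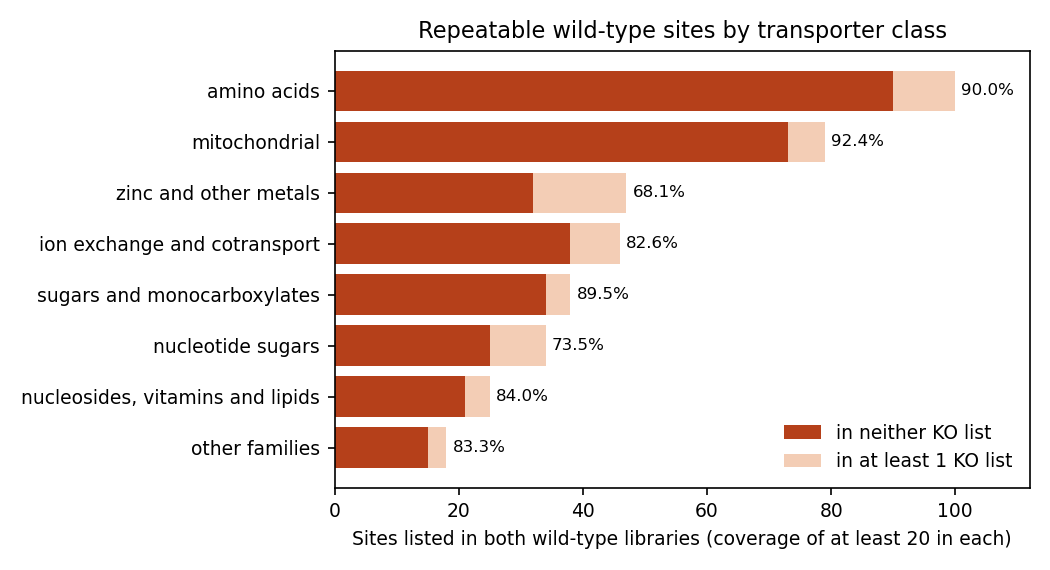
Number of repeatable WT sites (horizontal axis) in each class of solute carrier (vertical axis), split into sites in neither KO list and sites in at least 1, with the percentage in neither beside each bar. The shares run from 68.1% for zinc and other metals to 92.4% for mitochondrial carriers.

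Transcript coverage was lower in the KO for 6 amino acid carriers and higher for 3 other members, of which 1 carries peptides. The gene coverage is the authors' value per gene and was taken relative to the median gene of each library. A limma test on its log2 covered 8297 genes, and 258 of them (3.11%) passed an adjusted p of 0.05 as lower in the KO and 221 (2.66%) as higher. Of 138 solute carriers tested, 6 were lower and 3 higher, which is near the background in each direction. All 6 lower genes were amino acid carriers. The class of amino acid and peptide carriers had 27 tested members, 6 lower and 1 higher, with a median log2 difference of -0.15 and 20 negative values. Over all tested solute carriers the median was -0.00027, with 69 of 138 negative, and over all genes it was -0.02. In 67 of the 138 the genotypes did not overlap, in either direction, so that a lack of overlap was common. This share was not computed over all genes.

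Slc7a3 (ENSMUSG00000031297, chromosome X, 100122816 to 100129626, minus strand), a carrier of arginine and lysine, had a relative coverage of 3.11 and 3.03 in the WT and 1.17 and 1.14 in the KO. Its log2 difference was -1.41 ± 0.16 (SE, n = 2 libraries per genotype; limma adjusted p = 0.000898), and it stayed under 0.05 when any 1 library was left out (adjusted p of at most 0.0314). Both KO values lay below both WT values.

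Slc7a1, the widely expressed cationic amino acid carrier, had a coverage of 0.735 and 0.683 in the WT and 0.391 and 0.475 in the KO. Its log2 difference was -0.72 ± 0.17 (limma adjusted p = 0.0359). Slc6a15, a sodium-coupled carrier of branched-chain amino acids and proline, had 1.11 and 1.23 in the WT and 0.683 and 0.657 in the KO, a log2 difference of -0.80 ± 0.16 (limma adjusted p = 0.0185).

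The remaining 3 are sodium-coupled neutral amino acid carriers that the lists place near each other on the minus strand of chromosome 15. Slc38a1 (96469299 to 96540794) had a coverage of 2.06 and 2.45 in the WT and 1.36 and 1.34 in the KO (log2 difference -0.73 ± 0.17, limma adjusted p = 0.0310). Slc38a2 (ENSMUSG00000022462, 96585273 to 96597611) had 4.34 and 5.32 in the WT and 3.15 and 2.67 in the KO (-0.73 ± 0.18, adjusted p = 0.0394). Slc38a4 (96892701 to 96953837) had 1.13 and 1.34 in the WT and 0.828 and 0.721 in the KO (-0.67 ± 0.17, adjusted p = 0.0469). In each of these the genotypes did not overlap.

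The genes with lower coverage also held repeatable sites. Slc7a3 had 3, Slc6a15 4, Slc7a1 8 and Slc38a4 2, and all of these were in neither KO list, as were 9 of 10 in Slc38a1 and 9 of 11 in Slc38a2. The highest had WT levels of 0.529 (102 reads) and 0.476 (143 reads) in Slc7a3, 0.465 (86 reads) and 0.610 (77 reads) in Slc6a15, and 0.688 (48 reads) and 0.684 (76 reads) in Slc7a1. The genes with higher coverage held 3 in Slc35b2, 2 of them in neither KO list, and 1 each in Slc25a33 and Slc15a2, in neither KO list. Whether coverage and the listing of sites move together was not tested.

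Higher in the KO were Slc35b2, with 1.11 and 1.18 in the WT and 1.82 and 1.73 in the KO (log2 difference 0.63 ± 0.16, limma adjusted p = 0.0467), and Slc25a33, a pyrimidine nucleotide carrier of mitochondria, with 0.713 and 0.609 against 1.07 and 0.992 (0.64 ± 0.17, adjusted p = 0.0489). Slc15a2, a proton-coupled peptide carrier, had 0.782 and 0.753 against 1.25 and 1.12 (0.62 ± 0.17, adjusted p = 0.0495). Without centring on the median gene, which shifts all log2 differences by -0.11, 7 members were lower and 0 higher. Over all 8297 genes, 300 were lower and 101 higher in that setting. Of the members, 20 had an unadjusted p under 0.05, a count not taken over all genes. Of the 9, Slc7a3 alone passed in every fit with 1 library left out. Such fits leave a lone library in 1 genotype.

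Slc2a1 lay at the threshold. Its coverage was 27.8 and 32.7 in the WT and 21.4 and 15.5 in the KO, a log2 difference of -0.73 ± 0.19 (limma adjusted p = 0.0511), with both KO values below both WT values. It passed without centring (adjusted p = 0.0215), with the filter on low values (0.00604), with the replicate block (0.0429) and without WT replicate 1 (0.0373), and over the other alternatives the adjusted p reached 0.261. Slc16a1 had 2.84 and 3.99 in the WT and 4.03 and 3.24 in the KO, and its genotypes overlapped. Of the other transport genes, the metallothioneins Mt2 and Mt1, which bind zinc, were lower by log2 differences of -1.77 and -1.28 (limma adjusted p = 0.000273 and 0.00334). Txnip, an inhibitor of glucose uptake, was lower too (-0.91, adjusted p = 0.0234), so that 3 of 16 tested partners and regulators were lower and 0 higher. Of 15 ion-pumping ATPase genes tested, Atp1b2, a sodium pump subunit, was lower (-1.02, adjusted p = 0.00887).

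**Figure D5:**
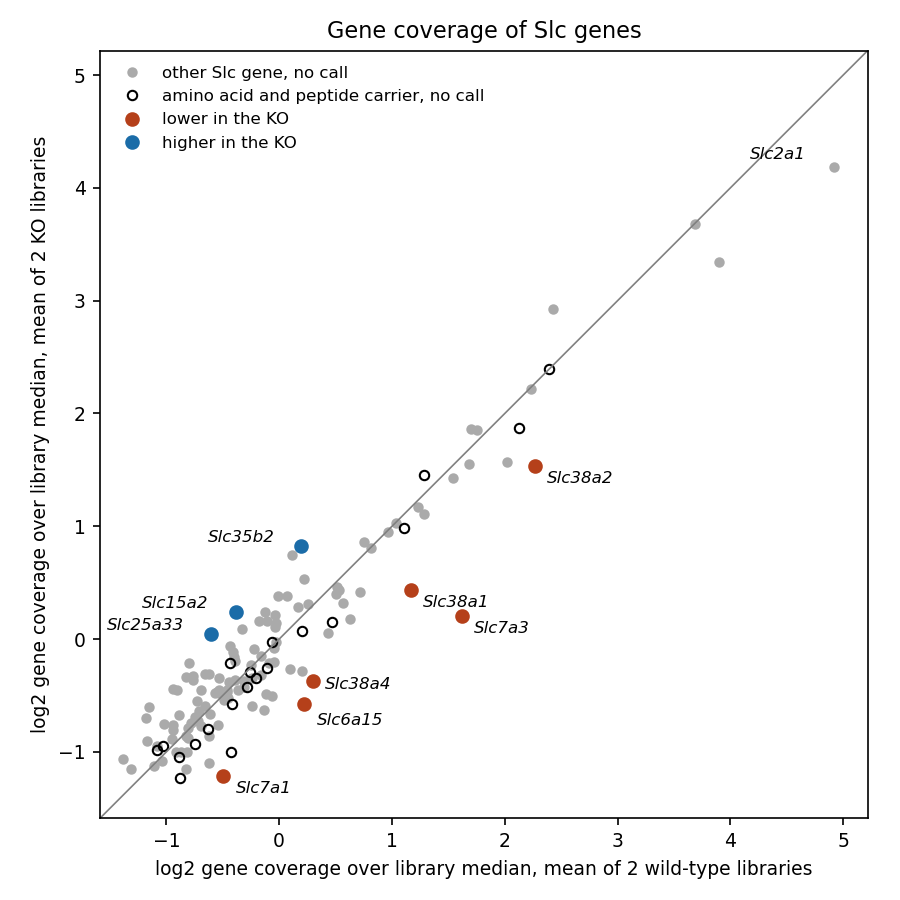
log2 gene coverage relative to the library's median gene for 138 solute carrier genes, the mean of the 2 WT libraries on the horizontal axis and of the 2 KO libraries on the vertical axis, with the line of equality. The 6 genes called lower, all amino acid carriers, lie below the line and the 3 called higher lie above it.

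RefSeq promoter windows (GRCm38.p6) were available for 3 of the 6 genes with lower coverage, Slc38a2, Slc38a4 and Slc7a1. The windows of Slc38a2 and of the most upstream start of Slc7a1 are shown up to the first transcribed base, in capital, because these members shared the direction of their coverage. Slc38a2 is at chr15:96699728-96699978 and Slc7a1 at chr5:148399904-148400154, both on the minus strand and written 5′ to 3′.
Slc38a2: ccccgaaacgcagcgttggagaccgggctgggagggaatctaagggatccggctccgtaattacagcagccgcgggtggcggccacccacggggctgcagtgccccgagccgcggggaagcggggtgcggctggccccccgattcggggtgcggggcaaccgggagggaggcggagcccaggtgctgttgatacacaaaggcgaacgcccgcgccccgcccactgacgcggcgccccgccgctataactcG
Slc7a1: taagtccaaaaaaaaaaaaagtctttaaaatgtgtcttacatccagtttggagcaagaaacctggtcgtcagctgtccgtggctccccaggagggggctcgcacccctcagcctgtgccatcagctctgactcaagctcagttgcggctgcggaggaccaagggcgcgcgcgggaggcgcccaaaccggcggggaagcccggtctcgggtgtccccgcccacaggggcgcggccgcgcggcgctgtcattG
The core of the amino acid response element, TGATGNAA, was searched on both strands in the whole windows of 300 bases, and overlapped no other motif searched. None of the 6 windows of the 3 genes held it, against 3.97% of 32851 promoter windows of all genes and 3.23% of 372 windows of solute carriers. This says only that these letters are not in these windows, and at so low a background 6 windows would usually hold none.

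The number of listed sites per gene was tested last, with an edgeR quasi-likelihood test over 12399 genes, of which 127 (1.02%) were lower and 115 (0.927%) higher in the KO. Of 184 solute carriers tested, 2 were lower and 0 higher. An unadjusted p under 0.05 was reached by 27, a count that was not taken over all genes. Slc7a1 had 27 and 54 sites in the WT and 6 and 5 in the KO, a log2 difference of -2.63 (edgeR adjusted p = 6.47e-06). Its 8 repeatable sites were all in neither KO list, and its gene coverage was lower in the KO, as given above; the part of coverage in the number of sites was not tested.

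Some members were listed in 1 genotype only. Slc2a4, the insulin-responsive glucose carrier, had 4 sites in each WT library and none in the KO lists, and Slc40a1, the iron exporter, had 1 and 3. In the other direction Slc25a18, a mitochondrial glutamate carrier, had 1 and 4 sites in the KO libraries and none in the WT lists. In all, 6 genes were listed in both WT libraries and neither KO library, and 4 in both KO libraries and neither WT library. These are 2.75% and 1.83% of the 218 members with a site, against 3.11% and 1.53% of all genes with a site, so neither share stood far from the background. The named genes were chosen after their values were seen and have few sites.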

How the data were processed

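Each library had its own list of called sites from the authors. The file headers give each site deposited counts of A or G reads and of A reads, the fraction of unconverted reads, a p-value with an adjusted p-value, and a coverage signal for its gene. Caller, aligner and annotation are not given in the sources used here. The submitters' processing notes name mm10, but only 3.32% of 21473 genes started within 1000 bases of their GRCm38 start, so positions are printed as the lists give them and the build is not settled.

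Sites were placed in Slc genes by position and strand, and 444 of the 11112 also lay in another gene. Values shared by a whole chromosome were not used as gene coverage, and 128 members without 1 gene value in all 4 lists were not tested. Site counts and sites per gene (at least 5 in all) were tested with edgeR 4.0.16 and gene coverage with limma 3.58.1 in R 4.3.3, over all genes, with Benjamini-Hochberg adjustment. The procedures were checked on simulated data. DESeq2 1.42.0 and other settings were alternatives. Named were all sites and genes past a test, the 20 sites of highest WT level, 6 further tested sites and the genes with most shared sites. Of the genes past the test of sites per gene, 1 is not reported here. The members and lists were chosen with earlier results of these data known.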

Additional observations from a re-analysis of the deposited data

How the results depend on the processing

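Absence from a list, a minimum level of 0.1 and 2 libraries per genotype limit every value here. No result changed direction under any alternative, though the KO over WT ratio of median site coverage reached 1.00 (from 0.962) with a library left out, and of 71 recomputed summary values 47 stayed within the replicate spread, the interval or 1.5 times the count. At a level of at least 0.3 the ratio of listed sites was 0.691 and the share in neither KO list 88.5%. The ratio of well covered high-level sites was 0.173 at a coverage of at least 100 and 0.197 at a level of at least 0.5. Leaving out each library in turn gave shares in neither KO list of 89.5% to 91.8%, a single list then being enough. A lone library is assumed to vary like the other genotype. The calls of fits with a library left out varied with that library and are for this reason not counted here. Gene coverage gave 4 calls with the most frequent gene value, against 192 lower and 164 higher of 8721 genes. With a pseudocount of 1 it gave 5, against 240 and 145 of 8297. Sites per gene gave 1 call with an adjusted p of at most 0.001, against 121 lower and 94 higher of 12070 genes. It gave 1 with DESeq2, against 21 and 20 of 12399. At a level of at least 0.3 it gave 0, against 14 and 10 of 10395. In that setting 23 of 173 solute carriers had an unadjusted p under 0.05 by edgeR. Counts at an unadjusted p were not taken over all genes. The replicate numbers did not pair the libraries: deviations of same-numbered libraries correlated at -0.0275 for gene coverage, 0.112 for site levels and -0.0362 for sites per gene. With the replicate number as a block, sites per gene gave 1 call, gene coverage 7 lower and 1 higher, and site level 2. Over all genes, sites per gene then gave 72 lower and 58 higher, and gene coverage 277 and 265. Site level gave 46 lower and 3 higher of 991 sites.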

Other observations

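A site in Slc22a2, an organic cation carrier of kidney, was read far more deeply than any other solute carrier site. Its coverage was 15638 and 19732 reads in the WT and 23872 and 14898 in the KO, which was 7.63% and 7.10% of all reads at listed solute carrier sites in the WT and 13.4% and 9.48% in the KO. The gene had 1 listed site in 3 libraries and 2 in KO 2. The level was 0.123 and 0.120 in the WT and 0.115 and 0.134 in the KO, and the genotypes overlapped.

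The solute carrier sites with the highest mean levels among those found in both KO lists were absent from the WT lists and rested on few reads. The highest mean was in Slc1a3, a glutamate carrier of glial cells, with levels of 0.261 (23 reads) and 1.00 (35 reads) in the KO libraries. Slc6a6, the taurine carrier, had 0.652 (46 reads) and 0.514 (35 reads), and Slc30a7, a zinc exporter of the Golgi, had 0.909 (22 reads) and 0.233 (30 reads). Slc38a2 had 0.128 (47 reads) and 1.00 (26 reads) at a site 269 bases after the start of the gene. These sites were chosen after their values were seen.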
